A study of Rattus norvegicus with 2 samples.

Results

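The genes described here are those of the translation initiation and elongation factors, taken as every gene whose symbol in the platform's annotation begins with Eif or Eef. The rule found 61 genes among 15613 named genes, measured by 100 probes. Of the 61, 36 had 1 probe and 25 had between 2 and 5, which were averaged. The prefix also took in 4 Argonaute genes, because the annotation still lists them under the older names Eif2c1 to Eif2c4. They act in RNA silencing and not in translation initiation, so they are described separately, and 57 genes of translation factors, of their inhibitors and of their kinases remain.

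The values come from 2 Agilent arrays, read in 2 colours, of uncultured rat heart RNA, labelled with Cy3, each hybridised against the same pool, mix1, labelled with Cy5. The labels describe mix1 through the culture, in serum, of rat bone marrow cells and of rat primary ear fibroblasts, without their proportions, and heart and mix1 were untreated. Strain, sex and age are not given in the labels, which also do not say whether heart samples 1 and 2 came from different animals. The p-values therefore rest on how far 2 samples lie apart, and that distance may be technical. Tissue of origin and culture differ together between heart and mix1 and cannot be told apart, and in bulk RNA fewer cells of a type cannot be told apart from less RNA per cell. Every value below is the log2 of the ratio of heart to mix1, so that 1 stands for a 2-fold higher and -1 for a 2-fold lower signal in heart. A gene passed the test when limma's moderated test of this ratio against 0 gave a Benjamini-Hochberg adjusted p of at most 0.05 over all genes.

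Translation begins when eIF2 carries the initiator tRNA to the small ribosomal subunit, eIF3 and the scanning factors hold that complex together, and eIF4F recruits it to the cap of an mRNA. The elongation factor eEF1A then brings each aminoacyl-tRNA to the ribosome, its partners eEF1B recharge it with GTP, and eEF2 moves the ribosome along. Mammals have a pair of eEF1A proteins. Eef1a1 is expressed in most cells, whereas Eef1a2 replaces it in adult heart, skeletal muscle and neurons.

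The transcription start of Eef1a1 and that of Eef1a2 are shown because their ratios lay farther apart than those of any other paralogues compared here, together with those of the helicase genes Eif4a1 and Eif4a2. The sequences are from RefSeq on build GRCr8, read 5′ to 3′ on the gene's strand from 60 bases before to 20 bases after the annotated start. Capitals mark TATAA wherever it stands before the start in these windows. They also mark a run counted from a C that lies within 5 bases of the start and is followed by at least 5 further C or T. The count starts at that C even where another C or T stands before it, as in Eef1e1. A 5′ terminal oligopyrimidine tract, which ties the translation of an mRNA to growth signals, begins at the first base of the mRNA. The runs marked here begin before or after the annotated start, and that of Eef1e1 lies almost wholly before it. Which of them are such tracts is unknown.
Eef1a1, chr8:88225050-88225129, minus strand: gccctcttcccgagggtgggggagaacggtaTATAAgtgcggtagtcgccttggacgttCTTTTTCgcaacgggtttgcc
Eef1a2, chr3:188652614-188652693, minus strand: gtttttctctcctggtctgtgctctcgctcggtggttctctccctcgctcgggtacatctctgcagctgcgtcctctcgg
Eif4a1, chr10:54888583-54888662, minus strand: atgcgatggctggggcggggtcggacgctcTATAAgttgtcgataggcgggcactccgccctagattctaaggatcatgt
Eif4a2, chr11:91275304-91275383, minus strand: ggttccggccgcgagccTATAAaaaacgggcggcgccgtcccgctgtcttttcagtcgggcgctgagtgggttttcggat

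Eef1a1 held TATAA 29 bases before its annotated start and a run of 7 pyrimidines beginning 1 base before it, while the window of Eef1a2 held neither. Eif4a1 held TATAA 30 bases before its start. Eif4a2 held it 43 bases before, outside the stretch from 40 to 16 bases where TATAA serves as a core promoter element. Neither had a run of pyrimidines. Among the other eEF1 genes, the windows from 15 bases before to 15 after the start show such a run in Eef1b2 and Eef1e1 and none in Eef1g. Eef2, Eef2k and Eefsec had none either and are not printed, and no promoter sequence was available for Eef1d. The initiation factor genes Eif3f and Eif2s3, which hold long runs, are given for comparison.
Eef1b2, chr9:72074076-72074105, plus strand: tttccggccggtcccggCCCTTTTTCTCCC
Eef1e1, chr17:26354232-26354261, plus strand: caggctccgcCCCCCTaggagctgggccag
Eef1g, chr1:215289800-215289829, plus strand: tttctctgcggaatcaccatggcggctggg
Eif3f, chr1:172369047-172369076, plus strand: tcacgcccttccgttctagCCTCTCTCTTT
Eif2s3, chrX:62933685-62933714, minus strand: ggcggcagccgagcattttCCTTTTCTCTC

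The RefSeq table held 59 promoters for 55 of the 61 genes. A run of this kind stood in 10 of the 59 (16.9%), against 9.91% of all 33469 promoters of the same length. TATAA, searched on both strands of the whole window of 300 bases, stood in 9 of the 59 (15.3%), against 26.2% of all promoters. From 40 to 16 bases before the start on the gene's strand, where TATAA serves as a core promoter element, it stood in 3 of the 59 (5.08%), those of Eef1a1, Eef1b2 and Eif4a1, against 2.48% of all promoters. These are matches of letters at annotated starts, which can lie some bases away from the start used in a tissue.

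Before the members' values, the material was checked against marker genes. All 9 cardiac muscle markers were higher in heart on both arrays, with a median of 6.27, and this set the likely direction of the ratio, which the table does not state. All 7 fibroblast markers and all 7 proliferation markers were lower in heart, with medians of -5.48 and -3.74. Of 7 neuronal and neuroendocrine markers 0 were higher and 4 lower, with means from -7.17 (Stmn2) to 0.52 (Syp, which did not pass). Of 7 skeletal muscle markers 2 were higher and 2 lower, and the sizes were uneven. Myog was at 1.83 and Tnnt3 at 0.34, but Myh1 was at -9.40 and Myh2 at -4.73. All 5 endothelial markers (median 3.75) and all 3 erythroid markers (median 3.84) were higher, while of 5 haematopoietic markers 2 were higher and 1 lower. The 7 lung epithelial markers lay between -1.21 and 0.84 on array 1 and between 0.76 and 6.68 on array 2, and each was at least 2-fold higher on array 2. The part of any of these cell types in the values of the translation factors was not tested.

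Most translation factor genes differed between heart and mix1, and more were lower than higher in heart. Of the 61 members, 18 were higher and 33 lower, together 83.6%, against 72.9% of all genes. By direction, 29.5% of the members were higher against 31.4% of all genes, and 54.1% were lower against 41.5% of all genes. At 2-fold or more, 5 members were higher and 13 lower, while 16.9% of all genes were higher and 19.5% lower at that size. Both directions together made 29.5% of the members and 36.4% of all genes. The median size of the ratio, sign left aside, was 0.70 over members and 0.69 over all genes. The median difference between arrays was 0.03 over members and 0.08 over all genes. The median over members was -0.36, with -0.09 over all genes. Without the Argonautes, a choice made after the data were seen, 17 of 57 were higher and 31 lower, with the same median of -0.36. Of the 61 ratios, 42 lay under 2-fold, and 33 of those 42 passed the test, while 9807 of the 15613 genes lay under 2-fold and 5702 of those passed. The smallest ratio that passed was 0.23 in size, that of Eif2a, and without a dye swap ratios of this size cannot be told apart from dye bias. The heart samples lay close together for nearly all members. In 60 of the 61 both arrays had the same sign, 24 positive and 36 negative. Of all 15613 genes, 6026 were positive and 7956 negative on both arrays. A difference of 2-fold or more between the arrays was seen in 1 member (1.64%), against 2.16% of all genes.

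**Figure D1:**
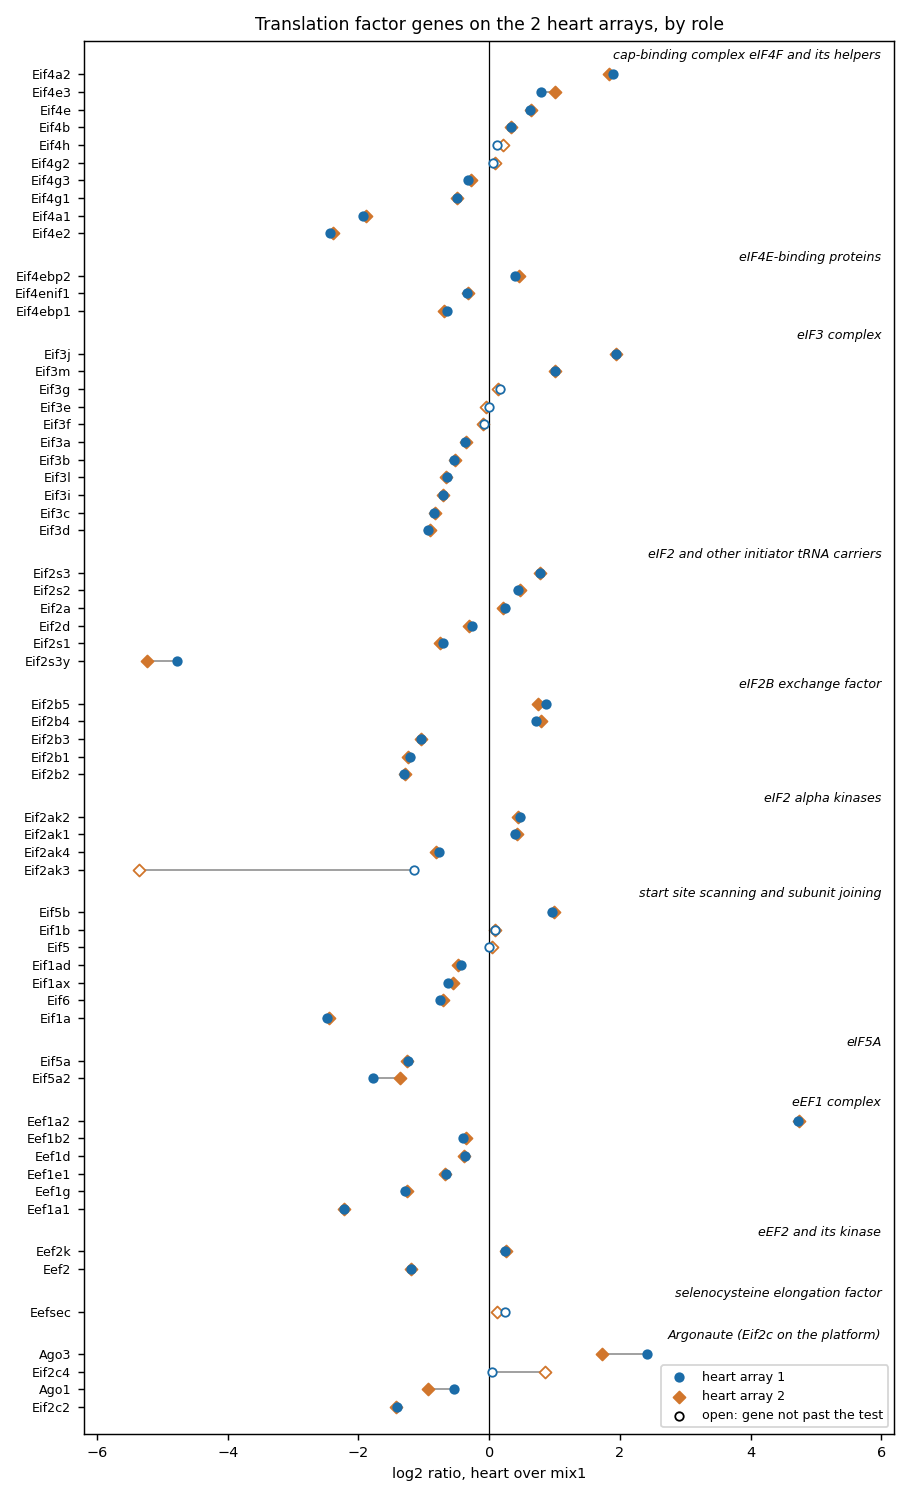
Log2 ratio of heart over mix1 (horizontal axis) for each of the 61 genes, in rows grouped by role, on heart array 1 (circles) and heart array 2 (diamonds); open symbols stand for genes that did not pass the test. Eef1a2 lies alone on the right at 4.72 and 4.74, Eif2s3y lies far to the left at -4.78 and -5.23, and the arrays separate widely in a single gene, Eif2ak3.

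Elongation factors showed the largest contrast. Eef1a2, the eEF1A of heart and skeletal muscle, had a ratio of 4.72 on array 1 and 4.74 on array 2, or 4.73 ± 0.01 (SD, n = 2), a 26.6-fold higher signal in heart (adjusted p 0.0012). That ratio ranked 227 from the top of 15613 genes. Eef1a1, the general form, was at -2.22 on both arrays, or -2.22 ± 0.0005, a 4.65-fold lower signal in heart (adjusted p 0.00123). Only 6.67% of all genes had a lower ratio. On array 1 the ratio of Eef1a2 exceeded that of Eef1a1 by 6.94 and on array 2 by 6.96, a mean of 6.95 ± 0.01, so that the balance of the isoforms differed 123-fold between heart and mix1. The gap was far larger than the spread between arrays, and was not tested, because exchanging signs over 2 arrays cannot give a p below 0.5. How much of either mRNA heart contains relative to the other cannot be read from ratios of different probes. Each gene had 1 probe, matched by accession, and the RefSeq gene table lists 20 pseudogenes and 2 like genes of Eef1a1, whose transcripts could share its probe.

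The remaining eEF1 genes followed Eef1a1 in direction and were less far from 0. Eef1g, a subunit of the exchange complex eEF1B, was at -1.28 and -1.26, or -1.27 ± 0.01 (adjusted p 0.00177), and its 3 probes lay between -1.61 and -0.98. The exchange subunits Eef1b2 (-0.38 ± 0.03) and Eef1d (-0.38 ± 0.01) were lower as well, with adjusted p of 0.0105 and 0.00897. Neither passed once the arrays were centred on their medians over all probes. That step moved the arrays apart for most named genes. Eef1e1, an auxiliary protein of the multi-tRNA-synthetase complex, was at -0.67 ± 0.01. In all, 5 of the 6 eEF1 genes were lower, against 41.5% of all genes, and Eef1a2 alone was higher.

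Eef2, the translocase, was at -1.20 and -1.19, a 2.29-fold lower signal in heart (-1.20 ± 0.01, adjusted p 0.00185). Its inhibitory kinase gene Eef2k was at 0.24 and 0.26, or 0.25 ± 0.01, and passed as higher (adjusted p 0.0199). However, its 2 probes went opposite ways, at -0.47 and 0.97, so the direction of Eef2k depends on the probe, and its call was lost after centring. Eefsec, which delivers selenocysteine, did not pass at 0.18 ± 0.08. Current symbols give the prefix to 2 further genes that the platform lists otherwise, the methyltransferase genes Eef2kmt at -0.85 ± 0.12 and Eef1akmt1 at -1.12 ± 0.02.

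The cap-binding complex eIF4F joins the cap-binding protein eIF4E, the helicase eIF4A and the scaffold eIF4G. Its genes, their helpers and their relatives went both ways. Of these 10 genes, which include the relatives Eif4e2 and Eif4g2, 4 were higher, 4 lower and 2 did not pass. These shares of 40% each way lie near the 31.4% and 41.5% of all genes. The median of the 10 genes was 0.12, and turned to -0.0044 when each gene was read from the probe whose arrays lay closest together. The helicase isoforms, like those of eEF1A, had opposite ratios. Eif4a2 was at 1.89 and 1.83, or 1.86 ± 0.04, a 3.63-fold higher signal in heart (adjusted p 0.00146). Eif4a1 was at -1.93 and -1.88, or -1.91 ± 0.03, a 3.75-fold lower signal (adjusted p 0.00139). Its 5 probes were all negative, from -2.47 to -1.33, and none reached the single probe of Eif4a2. The ratio of Eif4a2 exceeded that of Eif4a1 by 3.82 and 3.72 on the arrays, or 3.77 ± 0.07, a 13.6-fold shift of balance that was not tested.

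Cap-binding proteins were likewise divided. Eif4e, the main cap-binding protein, was at 0.63 ± 0.01 and passed as higher, with its 2 probes at 0.45 and 0.82. Eif4e3, an atypical member of that family, was at 0.79 and 1.01, or 0.90 ± 0.16, with probes at 0.16 and 1.63. Eif4e2, which encodes the translational repressor 4EHP, was at -2.43 and -2.39, or -2.41 ± 0.03, a 5.31-fold lower signal in heart (adjusted p 0.00124). The ratio of Eif4e thus lay 3.04 ± 0.03 above that of Eif4e2, a gap of 8.25-fold.

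Scaffold genes stood near 0. Eif4g1 was at -0.49 ± 0.001 over 3 negative probes, and Eif4g3 was at -0.30 ± 0.03, a call lost after centring. Eif4g2, an eIF4G relative that does not bind the cap protein, did not pass at 0.07 ± 0.02, and its 5 probes spread from -0.38 to 0.58. Of the helicase helpers, Eif4b was at 0.33 ± 0.003 and passed as deposited but not after centring, while Eif4h did not pass at 0.16 ± 0.06.

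Proteins that bind eIF4E and keep it from eIF4G were split by isoform. Eif4ebp1 was at -0.65 and -0.69, or -0.67 ± 0.03 (adjusted p 0.00415), with both probes negative. Eif4ebp2 was at 0.40 and 0.45, or 0.43 ± 0.04 (adjusted p 0.00933), with probes at -0.01 and 0.86. The ratios of these paralogues differed by 1.09 ± 0.07. Eif4enif1, which carries eIF4E into the nucleus, was at -0.34 ± 0.01, a call lost after centring.

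**Figure D2:**
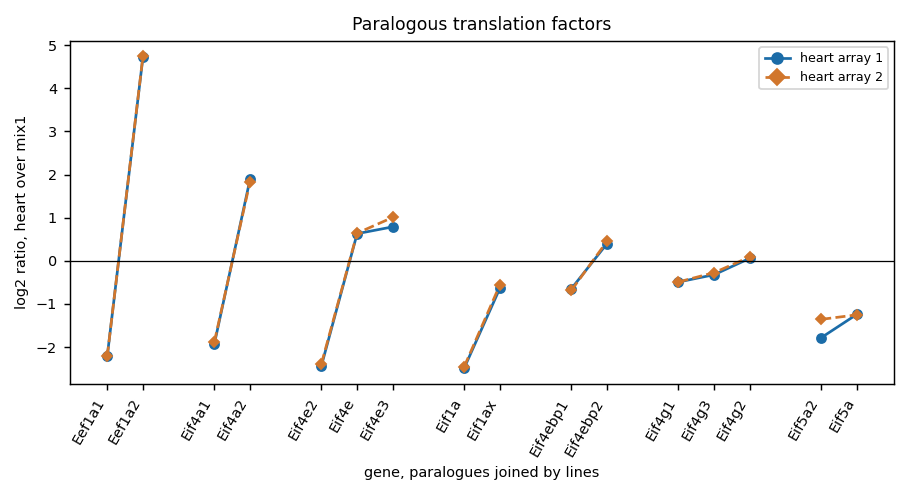
Log2 ratio of heart over mix1 (vertical axis) for paralogous factors joined by lines, on heart array 1 (circles, solid) and heart array 2 (diamonds, dashed). Eef1a1 and Eef1a2 span 6.95, Eif4a1 and Eif4a2 span 3.77, and the eIF4G genes span 0.56.

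The eIF3 complex, the largest initiation factor and the platform for assembly on the small subunit, had subunits on both sides of 0. On the means of their probes, the lower ones were so by less than 2-fold. Of 11 measured subunits, 6 were lower (54.5%, against 41.5% of all genes and 54.1% of the members), 2 were higher and 3 did not pass, with a median of -0.36. The means of the 6 lower subunits ran from Eif3d at -0.92 ± 0.02 to Eif3a at -0.36 ± 0.01. The probes of Eif3d, however, lay at -1.40 and -0.44. Between the means of Eif3d and Eif3a were Eif3c (-0.84 ± 0.01), Eif3i (-0.70 ± 0.01), Eif3l (-0.65 ± 0.01) and Eif3b (-0.53 ± 0.01). Eif3a, the scaffold subunit, had 3 probes from -1.13 to 0.31, and its call was lost after centring.

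Eif3j and Eif3m stood apart from these lower subunits. Eif3j, a loosely bound subunit, was at 1.94 on both arrays (1.94 ± 0.004, adjusted p 0.00128), a 3.83-fold higher signal in heart. Eif3m was at 1.01 on both arrays (1.01 ± 0.001, adjusted p 0.0022). The subunits Eif3g (0.15 ± 0.03), Eif3e (-0.03 ± 0.03) and Eif3f (-0.09 ± 0.005) did not pass. Subunits of the same complex therefore spanned from -0.92 to 1.94 on the means of their probes, with a spread between arrays that stayed at or below 0.03 (SD) for each. Probes of the same subunit lay farther apart than that, by up to 1.44 in Eif3a. Eif3j and Eif3m had 1 probe each, so their distance from the other subunits rests on single probes.

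eIF2, the carrier of the initiator tRNA, has an alpha, a beta and a gamma subunit. Eif2s1, which encodes the alpha subunit phosphorylated under stress, was at -0.71 and -0.75, or -0.73 ± 0.03 (adjusted p 0.00379). Eif2s2, the beta subunit gene, was at 0.46 ± 0.03 and all 3 of its probes were positive. Eif2s3, the X-linked gamma subunit gene listed as Eif2s3x on the platform, was at 0.77 and 0.78, or 0.78 ± 0.01 (adjusted p 0.00308), while its 3 probes ranged from 0.02 to 1.87. The alternative carriers were close to 0, with Eif2a at 0.23 ± 0.02 and Eif2d at -0.29 ± 0.03, both lost after centring.

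Eif2s3y, the Y-linked copy of the gamma subunit gene, had the lowest mean of all members. It was at -4.78 and -5.23, or -5.00 ± 0.32, a 32.1-fold lower signal in heart (adjusted p 0.00213), and 0.641% of all genes had a lower ratio. Ddx3y, another Y-linked gene named on the platform, stood close to it at -5.04 and -4.71, or -4.87 ± 0.23, while its X-linked relative Ddx3x was at -0.52 ± 0.04. Tspy1, the other Y-linked gene named here, is known from testis and did not pass at -0.06 ± 0.15. The sex of the heart donors and of the animals behind mix1 is not stated, and its part in these ratios was not tested.

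The guanine nucleotide exchange factor eIF2B recharges eIF2 and was divided between its subunits. Eif2b1 (-1.23 ± 0.03), Eif2b2 (-1.30 ± 0.01) and Eif2b3 (-1.05 ± 0.002) were each more than 2-fold lower in heart, with adjusted p from 0.00174 to 0.00212. For Eif2b3 this was borderline, with probes at -1.20 and -0.89 and a mean of -0.98 after centring. Eif2b4 was at 0.71 and 0.79, or 0.75 ± 0.06 (adjusted p 0.0045), and Eif2b5 at 0.88 and 0.75, or 0.81 ± 0.09 (adjusted p 0.00563). Eif2b1, Eif2b2, Eif2b4 and Eif2b5 had 1 probe each, so the divide rests mostly on single probes. Among members with several, probes of the same gene lay up to 2.32 apart (Eif5a2). As measured, the divide did not follow the catalytic subunits, since Eif2b3 and Eif2b5 encode the gamma and epsilon subunits that form the catalytic part.

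Kinases that phosphorylate eIF2 alpha under stress differed in direction. Eif2ak1, the heme-regulated kinase, was at 0.39 and 0.43, or 0.41 ± 0.02 (adjusted p 0.00861). Eif2ak2, the kinase PKR that senses double-stranded RNA, was at 0.45 ± 0.03, but its probes went opposite ways at -0.48 and 1.38. Eif2ak4, the amino acid sensor GCN2, was at -0.76 and -0.82, or -0.79 ± 0.04 (adjusted p 0.00361).

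Eif2ak3, the kinase PERK of the endoplasmic reticulum, was the member whose arrays disagreed most. Its single probe was at -1.15 on array 1 and -5.35 on array 2, and it did not pass (-3.25 ± 2.97, adjusted p 0.163). The probe was thus lower on array 2, whereas the 7 lung epithelial markers that separate the arrays were higher there. Their part in this difference was not tested. The next largest differences between arrays among the members were those of Eif2c4 and Ago3, at 0.81 and 0.69.

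Factors of start site scanning and subunit joining were lower in 4 of 7 genes, higher in 1 and not past the test in 2, against 41.5% of all genes lower and 31.4% higher. Their median was -0.46. Eif1a, one of the eIF1A genes, was at -2.49 and -2.45, or -2.47 ± 0.02, a 5.54-fold lower signal in heart (adjusted p 0.00122). Its relative Eif1ax was at -0.59 ± 0.05, with probes at -1.32 and 0.13, so that its direction depends on the probe, and Eif1ad, named for an eIF1A-like domain, at -0.46 ± 0.02, a call lost after centring. Eif5b, the GTPase that joins the ribosomal subunits, was at 0.97 and 0.99, or 0.98 ± 0.02 (adjusted p 0.00238), with both probes positive. Eif6, which keeps free large subunits from joining too early, was at -0.73 ± 0.02. Eif1b did not pass at 0.09 ± 0.01. Eif5, the GTPase-activating protein of eIF2, did not pass at 0.02 ± 0.03, but this mean hid probes at -0.74 and 0.78.

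Both eIF5A genes were lower in heart, as were 41.5% of all genes. The eIF5A protein carries the modified lysine hypusine and helps ribosomes through difficult stretches. Eif5a was at -1.24 and -1.25, or -1.25 ± 0.01 (adjusted p 0.00179). Eif5a2, the more restricted form, was at -1.78 and -1.36, or -1.57 ± 0.30 (adjusted p 0.0105). Its 3 probes ranged from -2.83 to -0.52, and it did not pass when their median was used, at -1.36. Dhps, which takes part in making hypusine, went the other way at 0.58 ± 0.02.

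Probes of the same gene did not always concur. Of the 25 members with several probes, 9 had probes at least 2-fold apart and 7 had probes on both sides of 0, and 5 of those 7 passed the test on their mean. These 5 were Eif2ak2, Eif4ebp2, Eef2k, Eif3a and Eif1ax, and the other two were Eif4g2 and Eif5. In none of the 25 did one probe pass 2-fold upward while another passed 2-fold downward. The RefSeq table lists pseudogenes for 32 of the 61 members, 113 in all, with 16 for Eef1g, 11 for Eif5, 10 for Eif4e and 8 for Eif4a1. Transcripts of near-identical copies could share a probe, and the ratios of these genes are uncertain to that extent.

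**Figure D3:**
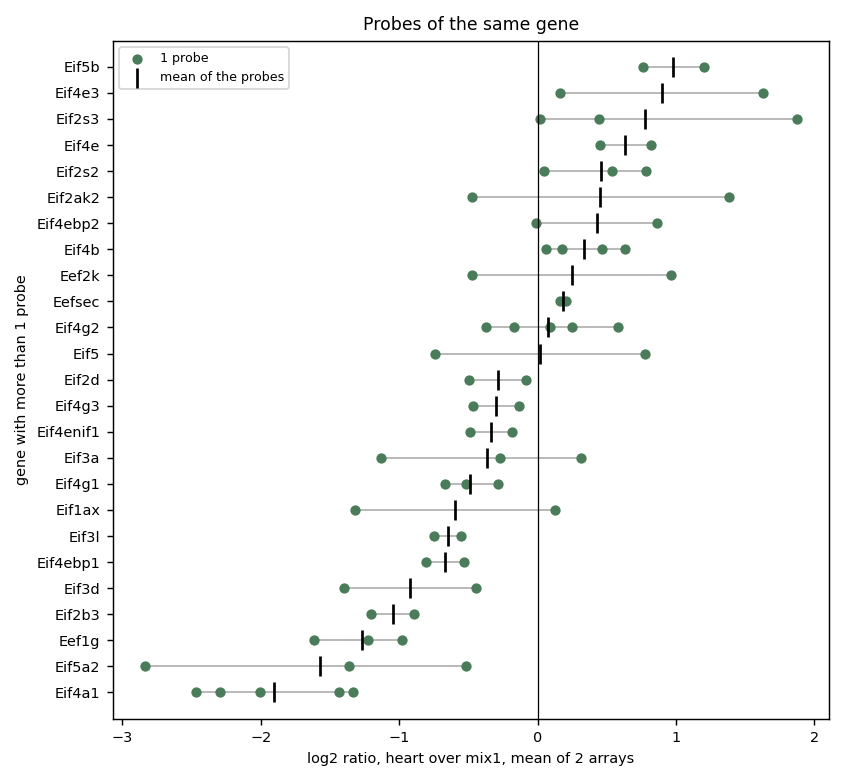
Log2 ratio of heart over mix1, averaged over the 2 arrays (horizontal axis), for each probe (dots) of the 25 members with more than 1 probe, with the mean of the gene's probes as a vertical bar. All 5 probes of Eif4a1 lie between -2.47 and -1.33, whereas those of Eif5, Eif2ak2 and Eef2k lie on both sides of 0.

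Argonautes, the guide-binding proteins of RNA silencing that the rule took in through their old names, were divided. Ago3 was at 2.41 and 1.72, or 2.07 ± 0.49, and passed as higher (adjusted p 0.0147). The gene listed as Eif2c2, an older name of Ago2, was at -1.41 and -1.42, or -1.42 ± 0.01 (adjusted p 0.00161). Ago1 was at -0.54 and -0.94, or -0.74 ± 0.28 (adjusted p 0.0359). Eif2c4, an older name of Ago4, did not pass, at 0.04 and 0.85. Except for Eif2c2, the arrays of these genes lay farther apart than those of most translation factors.

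Other genes of translation were taken from 3 lists outside the prefix; Mtif2, Mtrf1l, Gfm1, Asns, Trib3 and Pabpc1 are the extremes over all 3, and the others named were chosen after their values were seen. Of 28 measured cytosolic factors and regulators, 11 were higher (39.3%), 13 lower (46.4%) and 4 did not pass, near the 31.4% and 41.5% of all genes, with a median of -0.37. Pabpc1, the poly(A)-binding protein gene whose product meets eIF4G at the mRNA's ends, was lowest at -3.38 on both arrays (-3.38 ± 0.0004), while its relative Pabpc4 was at 1.20 ± 0.02. Mcts1, a partner in recycling and reinitiation, was highest at 1.59 ± 0.004. Larp1, which binds mRNAs with a terminal oligopyrimidine tract, was at -1.58 ± 0.04, and the kinase gene Mtor, which controls eIF4E-binding proteins, at 0.72 ± 0.003. Pdcd4, an inhibitor of eIF4A, was at 0.91 ± 0.08, and Tsc1, a brake on mTOR, at -1.42 ± 0.14.

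Genes of the integrated stress response, which acts through eIF2 alpha, were lower in heart for 8 of 9 measured, against 41.5% of all genes, with a median of -1.56. Asns was at -4.18 and -4.25, or -4.21 ± 0.04, an 18.6-fold lower signal in heart (adjusted p 0.0012), and Trib3 at -3.55 and -3.49, or -3.52 ± 0.04. Chac1 was at -2.88 ± 0.09 and Atf4, the transcription factor of the response, at -0.75 ± 0.03. Ddit3 alone was higher at 0.48 ± 0.02.

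Mitochondrial translation factors, which serve the organelle's own ribosomes, were higher in heart. All 7 measured passed the test as higher, against 31.4% of all genes, and their median was 1.25. Mtif2, the mitochondrial initiation factor, was highest at 2.39 and 2.45, or 2.42 ± 0.04, a 5.36-fold higher signal (adjusted p 0.00125). Mtrf1l, a release factor, was at 1.98 ± 0.09 and the elongation factor Gfm1 at 1.70 ± 0.05. Tufm, the mitochondrial counterpart of eEF1A, was at 0.73 ± 0.03, and Mrrf, the recycling factor, was lowest at 0.54 ± 0.01.

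**Figure D4:**
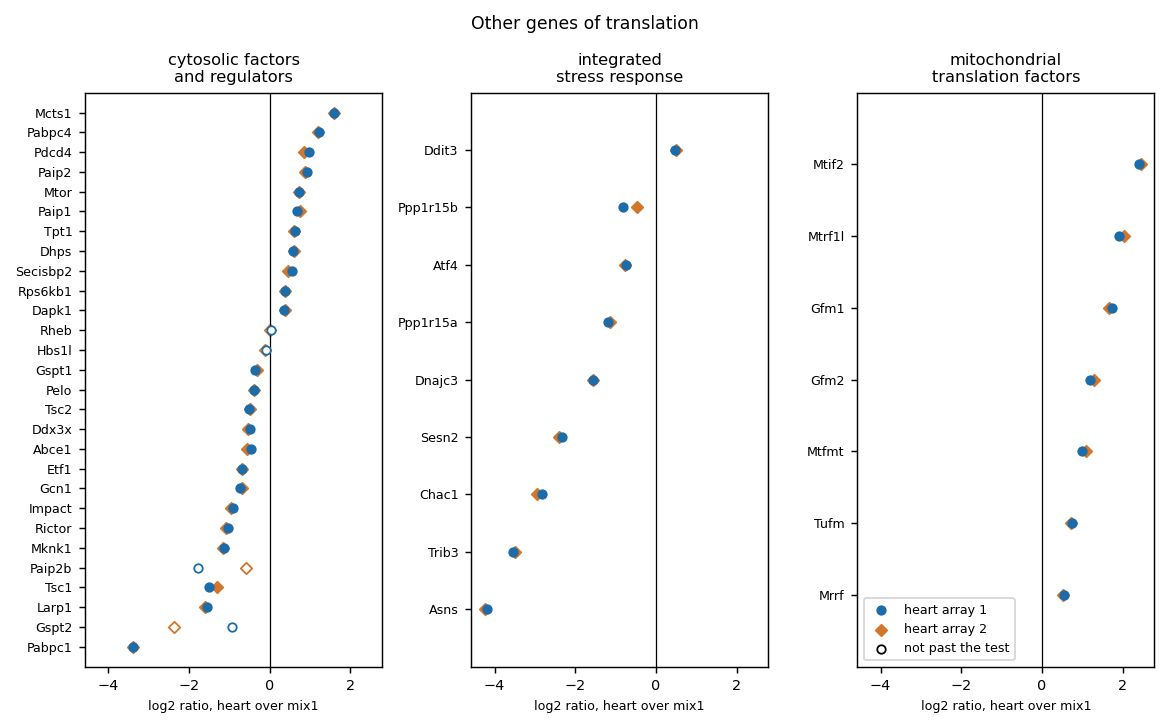
Log2 ratio of heart over mix1 (horizontal axes) of the other genes of translation on heart array 1 (circles) and heart array 2 (diamonds), in 3 panels by list; open symbols stand for genes that did not pass the test. The 7 mitochondrial factors all lie right of 0, 8 of the 9 stress response genes lie left of it, and Pabpc1 lies apart from the cytosolic list at -3.38.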

How the data were processed

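The deposited table holds 1 value for each of 40012 probes on each of 2 arrays, read here as the authors' log2 ratio of the 2 channels. A base of 2 is likely from their range, -11.10 to 10.42, and heart over mix1 from the cardiac markers, since neither is stated. Agilent Feature Extraction was used, per the submitters' processing notes. For its version, and for how background and dyes were corrected, the entry is "not given in the sources used here". No spot intensities were used, so signal over background is unknown; the small number of arrays limits precision.

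Of the probes, 20417 had 1 symbol on the platform, 0 had several and 19595 had none. Symbols were updated through accessions, matched for 16978 probes, and log2 values were averaged into 15613 genes. The test was that of limma 3.58.1 under R 4.3.3 (lmFit and eBayes on an intercept, two-sided, 1 residual and 1.24 prior degrees of freedom). Mix1 counts as 1 control sample, whose own spread is left out. There was no dye swap. The code was tested on simulated data.

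The members and lists were chosen with earlier results of these data known. Genes were named by a rule: the eEF1A isoforms, all members of role groups of at most 6, the 10 highest and 10 lowest members past the test, the extremes, exceptions and non-passing members of larger groups, any member with probes opposite by 2-fold (there were 0), and the 3 highest and 3 lowest other genes. The remaining members were then named too. Tried alternatives were the median probe, the probe with the smallest difference between arrays, median centring, natural logs, platform symbols, a robust prior, and leaving out each array.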

Additional observations from a re-analysis of the deposited data

How the results depend on the processing

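Platform symbols and a robust prior changed no call among the 61 members. Leaving out each array gives values without a test, and turned 1 sign: Eif5 was at -0.0023 on array 1 and 0.036 on array 2. The median of the eEF1 genes was -0.54 and -0.53 on single arrays. The median over members was -0.36, and -0.34 with median probes, -0.46 with the probe of smallest difference, -0.30 after centring and -0.52 with natural logs. Natural logs enlarge every ratio: Eef1a2 then exceeded Eef1a1 by 10.02, and 10 members were at least 2-fold higher and 20 lower. With the probe of smallest difference, 8 were at least 2-fold higher, and Eef2k (-0.47), Eif1ax (0.13), Eif4g2 (-0.17) and Eif5 (-0.74) reversed. The group medians were, with that probe, after centring and with natural logs in turn, -0.0044, 0.18 and 0.17 for eIF4F, -0.18, -0.27 and -0.48 for the eIF4E-binding proteins, -0.27, -0.30 and -0.52 for eIF3, and -1.20, -0.98 and -1.51 for eIF2B. The eIF3 median was also -0.27 with median probes. That of the eIF2 group was -0.13 with that probe and reversed to 0.034 after centring. After centring and with natural logs, it was -0.13 and -0.27 for the eIF2 alpha kinases, -0.39 and -0.66 for scanning factors, and -0.46 and -0.76 for eEF1. Centring also reversed Eif3e (0.035) and added Eif2ak3 and Eif2c4. It left 10 called members past the test no longer, all between 0.23 and 0.40 in size once centred. That fit put all its weight on the spread common to all genes. It subtracted the medians over all probes, 0.012 on array 1 and -0.138 on array 2. As deposited, the median difference between arrays over named genes was -0.004. Centring thus moved the arrays apart for most named genes, and whether a call lost in it is fragile cannot be told. No paired analysis was possible because the arrays form a single group.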
